A study of Mus musculus with 3 samples.

Results

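The comparison set 1 messenger RNA library of mouse bone marrow stromal cells given Prx1-EV vesicles against 1 library of such cells given All-EV vesicles, the control. Of 27179 genes in the deposited table, the 11067 whose mean over the study's 3 libraries was at least 50 normalised counts were compared. The cultured cells of every group are labelled wild type, were kept at 3% oxygen and were exposed to vesicles for 3 days. Prx1-EV vesicles came from the bone marrow plasma of mice that carried a CAGS-Snorkel transgene together with Prx1-Cre, a driver active in limb mesenchyme and all its descendants. The source of All-EV vesicles was wild-type mice. The remaining culture, Ocn-EV, received vesicles of mice with CAGS-Snorkel and Ocn-Cre, a driver of mature osteoblasts, and its values are given beside them. The donor mice were C57BL/6N and 6 months old, and plasma of 5 of them (2 males and 3 females) was pooled into 1 preparation for each group. An HA antibody on magnetic beads was used for capture in each group. How that step took up vesicles of wild-type mice, the vesicle dose and the donors of the cultured cells are not given in the sources used here. With 1 library in each group, the differences below are unreplicated and carry no p-values.

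Extracellular vesicles are membrane-bound particles through which cells pass proteins and RNA to one another. Bone marrow stromal cultures hold adherent mesenchymal cells, which can become bone, cartilage, fat or contractile cells and lay down collagen matrix. Marrow macrophages adhere with them. Macrophages shift between an inflammatory state, in which they release chemokines, proteases and nitric oxide, and a resident state with scavenging, lipid-handling and complement genes. Interferon-stimulated genes form a further programme, switched on from interferon receptors through a promoter element.

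Promoter sequences are shown for genes from the interferon-stimulated and contractile lists and from the chemokine, acute-phase and inflammatory lists. The lists were picked by name and are not those with the most extreme medians at both ends. Promoter windows came from RefSeq (GRCm38.p6) and reach from 250 bases before to 50 after a gene's start. They were found for 8843 of the 11067 genes. The motifs were searched on both strands as GAAA, any 2 bases and GAAA for the interferon-stimulated response element (ISRE), as GGGA, any base, TT, any base and CC for NF-kB sites and as the CArG box of serum response factor. Those shown are the genes farthest from 0 in their lists, by at least 2-fold, with a match before the start. Each stretch is 150 bases, 5′ to 3′ on the gene's strand, with the matched letters in capitals. The 4 interferon genes that were higher with Prx1-EV come first, from chr19:34583353-34583502 (plus strand), chr5:120887614-120887763 (minus), chr5:120777660-120777809 (minus) and chr19:34640739-34640888 (plus).
Ifit3: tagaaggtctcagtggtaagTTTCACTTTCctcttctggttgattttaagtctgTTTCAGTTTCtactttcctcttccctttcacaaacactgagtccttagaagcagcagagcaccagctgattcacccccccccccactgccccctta
Oas1g: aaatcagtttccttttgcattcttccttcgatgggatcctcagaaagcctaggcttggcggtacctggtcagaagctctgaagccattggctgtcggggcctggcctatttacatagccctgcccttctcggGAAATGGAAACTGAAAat
Oas3: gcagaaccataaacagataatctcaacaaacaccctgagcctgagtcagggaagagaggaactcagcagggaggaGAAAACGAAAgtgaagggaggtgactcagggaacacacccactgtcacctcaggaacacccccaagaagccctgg
Ifit1: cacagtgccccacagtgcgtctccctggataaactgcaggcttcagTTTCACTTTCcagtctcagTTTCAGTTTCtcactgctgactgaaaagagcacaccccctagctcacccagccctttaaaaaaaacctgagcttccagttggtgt
The contractile gene Myl9, also higher, has its stretch at chr2:156775283-156775432 (plus), which ends before the start site.
Myl9: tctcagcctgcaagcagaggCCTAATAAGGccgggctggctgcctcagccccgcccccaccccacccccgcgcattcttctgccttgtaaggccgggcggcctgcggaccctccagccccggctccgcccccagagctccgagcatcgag
The chemokine genes Cxcl3 and Cxcl2, both lower, have theirs at chr5:90785951-90786100 and chr5:90903749-90903898 (both plus).
Cxcl3: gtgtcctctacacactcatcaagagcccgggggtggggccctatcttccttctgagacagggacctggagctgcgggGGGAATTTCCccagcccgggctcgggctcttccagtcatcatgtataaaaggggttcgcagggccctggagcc
Cxcl2: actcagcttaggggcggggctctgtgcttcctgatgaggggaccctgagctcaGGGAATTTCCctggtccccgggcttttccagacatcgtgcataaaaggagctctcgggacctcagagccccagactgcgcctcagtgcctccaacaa
An ISRE match stood in the windows of 3.80% of all genes compared, against 17 of 33 interferon-stimulated genes (51.5%) and 10 of 12 interferon-inducible GTPase and IFI200 genes (83.3%). An NF-kB match stood in 1.54% of all windows and in 7 of 20 windows of NF-kB subunits and feedback genes. Cxcl3 and Cxcl2 were the 2 of 10 CXC windows with one. Inflammatory cytokine and enzyme genes had 1 of 9, CC chemokine genes 0 of 5, acute-phase and antiprotease genes 0 of 7 and all 2-fold lower genes 2.23%. For the CArG box the shares were 1.59% of all windows and 3 of 17 of the contractile list. Several of these genes are neighbouring copies of one another. A match describes letters only and says nothing of whether a factor was bound.

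Reads assigned to genes numbered 15558165 in All-EV and 17269204 in Prx1-EV, and the genes compared took 99.6% and 99.5% of them. A ratio below is log2((Prx1-EV + 1)/(All-EV + 1)) of deposited levels, and brackets give its 95% interval from counting error alone. The median ratio over all genes was 0.00, with quartiles at −0.33 and 0.32. At least 2-fold higher with Prx1-EV were 567 genes, 5.12% of those compared, and 405 (3.66%) were at least 2-fold lower. Higher genes made up 58.3% of the 2-fold genes as deposited. They made up 79.7% after scaling to equal library totals, a step that raises every ratio by about 0.22. Of the 972 genes apart in either direction (8.78%), 431 had an interval that reached under 2-fold. At a threshold of 1.5-fold, 12.7% of all genes were higher and 12.7% lower (25.3% in all) as deposited. List counts below use that threshold, with the count at equal totals where it differed by more than 1.5 times. For equal totals no 1.5-fold share over all genes was computed, and the median over all genes was 0.22, so those counts lean toward higher. A list's count covers only members past the filter, and a gene could pass through 1 library alone. A gene that passes through All-EV alone can only come out lower with Prx1-EV, and one that passes through Prx1-EV alone only higher.

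**Figure D1:**
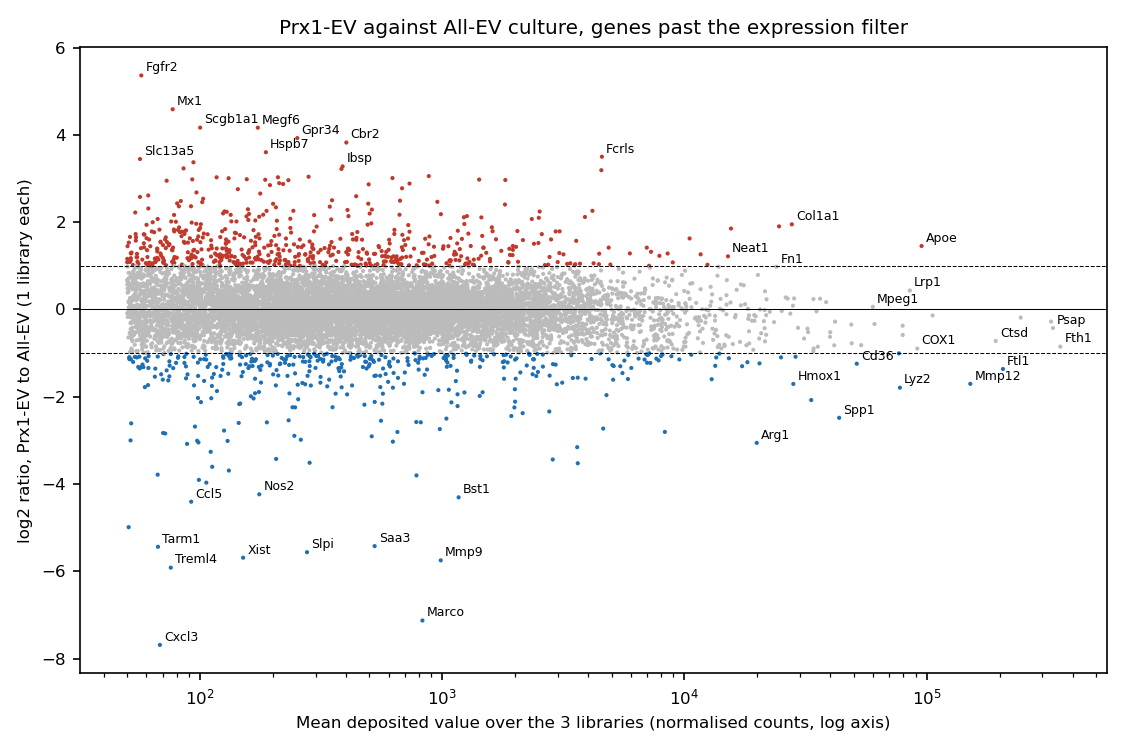
Log2 ratio of Prx1-EV to All-EV (vertical) against the mean deposited value over the 3 libraries (horizontal, log axis), 1 point for each of the 11067 genes. Red points are the 567 genes at least 2-fold higher and blue points the 405 at least 2-fold lower, outside the dashed lines. Fgfr2 lies at the top and Cxcl3 at the bottom.

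Which genes were far apart depended on their level. Among genes with a mean of 50 to 200, 9.11% were 2-fold higher and 4.50% lower. Among the 447 genes with a mean of at least 5000 the balance was the opposite, at 3.36% and 9.62%, with a median ratio of −0.24. By share of reads, 16.3 percentage points moved between the libraries. Shares compare the libraries at equal totals, which places Prx1-EV about 0.22 higher in log2 than deposited levels do. Just 32 genes held 50% of the loss, whereas 474 genes held 50% of the gain. The 12 genes that lost most gave up 6.09 points, and the 12 that gained most took 1.68 points.

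The largest losses were in iron storage, matrix-degrading and lysosomal transcripts. The ferritin light chain Ftl1 stood at 350786 with All-EV, 136302 with Prx1-EV and 132409 with Ocn-EV (ratio −1.36, −1.37 to −1.35). The heavy chain Fth1 stood at 515775 with All-EV, 286076 with Prx1-EV and 267100.0 with Ocn-EV (ratio −0.85, −0.86 to −0.84). Mmp12, the elastase of macrophages, stood at 286208 with All-EV, 87875 with Prx1-EV and 80047 with Ocn-EV (ratio −1.70, −1.71 to −1.69). Next came Lyz2 (lysozyme), the cathepsin Ctsd, Spp1 (osteopontin), the saposin precursor Psap, the mitochondrial COX1, the elongation factor Eef1a1, the fatty acid carrier Cd36, arginase Arg1 and the heme oxygenase Hmox1. The largest gain belonged to Apoe, the lipid carrier, which stood at 42169 (All-EV), 115619 (Prx1-EV) and 127990.0 (Ocn-EV), a ratio of 1.46. The genes after it included the endocytic receptor Lrp1, the matrix genes Col1a1, Thbs1, Fn1 and Col1a2, the nuclear RNA Neat1, the syndecan Sdc3, the perforin-like Mpeg1, the filamin Flna and the lysosomal Ctsa. Apoe alone gained 0.528 points, while Ftl1, Mmp12 and Fth1 each lost more than 1 point.

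**Figure D2:**
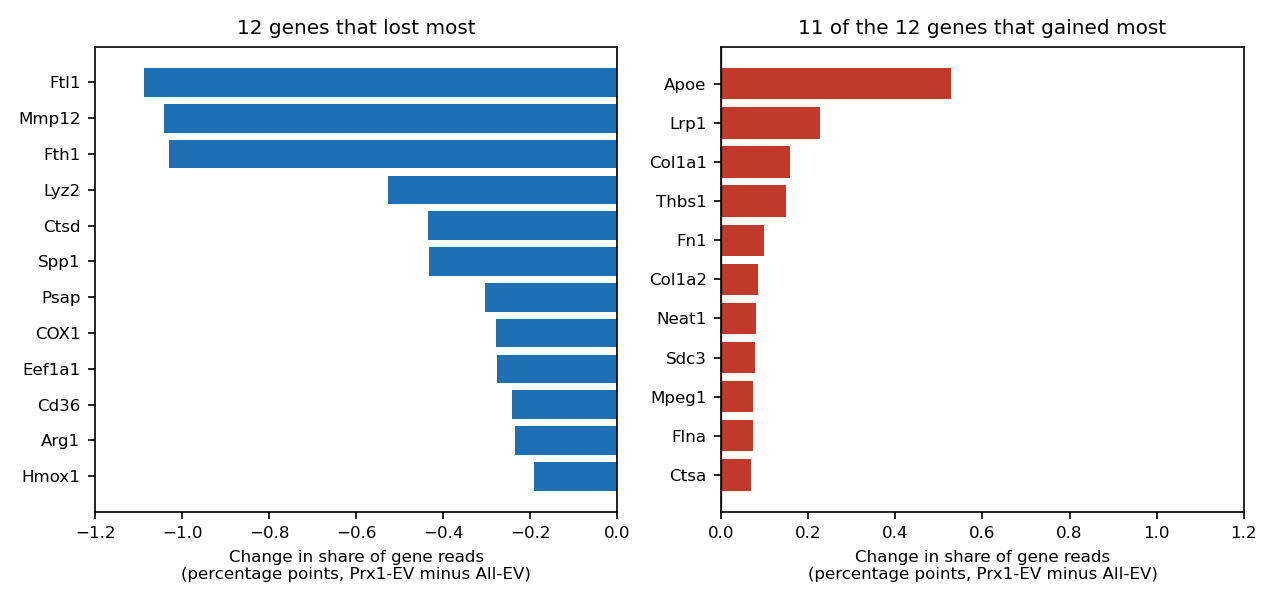
Change in the share of gene-assigned reads, in percentage points (Prx1-EV minus All-EV), for the 12 genes that lost most (left) and 11 of the 12 that gained most (right), on axes of equal span. Ftl1, Mmp12 and Fth1 each lost more than 1 point, and Apoe gained 0.528.

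Collagen genes were higher with Prx1-EV across nearly all chains. Of 8 fibrillar chains past the filter, 7 were at least 1.5-fold higher and 0 lower (median 1.82). Col2a1, the chain of cartilage collagen, stood at 651 with All-EV, 5950.4 with Prx1-EV and 7012 with Ocn-EV (ratio 3.19, 3.07 to 3.32). That was the largest fibrillar ratio. Of 13 chondrocyte markers, Col2a1 alone passed the filter, and 5 had 0 reads with All-EV, 3 of them also with Prx1-EV. Sox9, the cartilage transcription factor, was under the filter and stood at 47.5 with All-EV and 27.9 with Prx1-EV. The summed level of the markers besides Col2a1 and Sox9 was low in both libraries and higher with Prx1-EV. Col5a1, which nucleates fibrils, stood at 931 with All-EV, 4467 with Prx1-EV and 7108 with Ocn-EV (ratio 2.26, 2.16 to 2.37). Type III collagen, Col3a1, stood at 869 with All-EV, 3006 with Prx1-EV and 4943 with Ocn-EV (ratio 1.79, 1.68 to 1.90). In each of these chains the Prx1-EV level lay between All-EV and Ocn-EV. The exception was Col5a3, at a ratio of −0.34 (−0.65 to −0.03).

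Network and fibril-associated chains gave 11 of 13 higher and 0 lower (median 1.15). Col6a2, of the beaded filaments around cells, stood at 242 with All-EV, 1104 with Prx1-EV and 1614 with Ocn-EV (ratio 2.18, 1.98 to 2.40). Col12a1, which coats fibrils under tension, stood at 938 with All-EV, 4081 with Prx1-EV and 6628 with Ocn-EV (ratio 2.12, 2.01 to 2.23). Enzymes and chaperones that build collagen were higher less widely, 12 of 26 and 0 lower (median 0.51). The collagen chaperone Serpinh1 stood at 1369 with All-EV, 4076 with Prx1-EV and 5274 with Ocn-EV (ratio 1.57, 1.48 to 1.67). Lox, which crosslinks collagen and elastin, stood at 3989 with All-EV, 9709 with Prx1-EV and 11868 with Ocn-EV (ratio 1.28, 1.23 to 1.34). P4hb, the abundant prolyl hydroxylase subunit, had a ratio of −0.20 (−0.24 to −0.17). The enzyme list held genes on both sides of 0. All cells of these cultures contribute to 1 library, so more cells of a type and more RNA per cell cannot be told apart, here and below.

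Other matrix families were split by member. Small leucine-rich proteoglycans, which bind collagen fibrils, had 5 of 6 higher and 1 lower. Fmod (fibromodulin) stood at 373 with All-EV, 1982 with Prx1-EV and 3089.7 with Ocn-EV (ratio 2.40, 2.24 to 2.58). Tsku, a secreted member that binds signalling ligands, went the other way and stood at 946 (All-EV), 329 (Prx1-EV) and 299 (Ocn-EV), a ratio of −1.52. Elastic fibre and matricellular genes had 13 of 23 higher and 3 lower (median 0.69), or 1 lower with equal totals. The basement membrane linker Nid2 stood at 201 with All-EV, 1118 with Prx1-EV and 1544 with Ocn-EV (ratio 2.47, 2.25 to 2.71). Tnn (tenascin-W), found around osteogenic cells, stood at 578 with All-EV, 2744 with Prx1-EV and 4250.4 with Ocn-EV (ratio 2.24, 2.11 to 2.38). Thbs1, which can activate latent TGF-beta, stood at 7741 with All-EV, 28992 with Prx1-EV and 36994 with Ocn-EV (ratio 1.91, 1.87 to 1.94). Among hyaluronan and cell surface proteoglycan genes, 8 of 14 were higher and 2 lower. Vcan (versican) stood at 179 with All-EV, 705 with Prx1-EV and 644 with Ocn-EV (ratio 1.97, 1.73 to 2.23), whereas the glypican Gpc1 stood at 3242 (All-EV), 1078 (Prx1-EV) and 1077 (Ocn-EV), a ratio of −1.59.

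Matrix-degrading enzymes lay on both sides of 0. Among 19 metalloproteinase and inhibitor genes, 7 were higher and 5 lower (median 0.40). The 4 genes at least 2-fold lower were Mmp9, Mmp8, Mmp13 and the elastase Mmp12, given above. Mmp9, the gelatinase of osteoclasts and leukocytes, stood at 2865 with All-EV, 52.3 with Prx1-EV and 39.3 with Ocn-EV (ratio −5.75, −6.17 to −5.41). Mmp8, the neutrophil collagenase, stood at 8978 with All-EV, 1008 with Prx1-EV and 836 with Ocn-EV (ratio −3.15, −3.25 to −3.07). Mmp13, the collagenase of cartilage and bone remodelling, stood at 19689 with All-EV, 2817 with Prx1-EV and 2389 with Ocn-EV (ratio −2.80, −2.86 to −2.75). The 6 at least 2-fold higher were Mmp2, Mmp17, Mmp23, Adamts4, Adamts5 and Adamts12. Adamts12 stood at 40.7 with All-EV, 305 with Prx1-EV and 315 with Ocn-EV (ratio 2.88, 2.41 to 3.44), and the aggrecanase Adamts5 stood at 19.2 (All-EV), 68.0 (Prx1-EV) and 107 (Ocn-EV), a ratio of 1.77. In the plasminogen system, the inhibitor gene Serpinb2 stood at 214 with All-EV, 24.4 with Prx1-EV and 26.9 with Ocn-EV (ratio −3.08, −3.76 to −2.55).

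Osteoblast genes had members far from 0 in both directions. Of 12 past the filter, 5 were higher and 4 lower (median −0.17, but 0.06 with equal totals and 0.76 over 17 genes with the filter at 10). Sp7 (osterix), which commits cells to the osteoblast fate, stood at 13.6 with All-EV, 50.6 with Prx1-EV and 179 with Ocn-EV (ratio 1.82, 0.98 to 2.93). Pth1r, the parathyroid hormone receptor, stood at 36.2 with All-EV, 120.4 with Prx1-EV and 282 with Ocn-EV (ratio 1.71, 1.17 to 2.34). Phospho1, a phosphatase that starts mineralisation in matrix vesicles, stood at 473 with All-EV, 147 with Prx1-EV and 174 with Ocn-EV (ratio −1.68, −1.96 to −1.43). Cdh11, the mesenchymal cadherin, stood at 232 with All-EV, 106 with Prx1-EV and 154 with Ocn-EV (ratio −1.13, −1.47 to −0.80). Runx2, the early osteoblast regulator, had a ratio of 0.05 (−0.20 to 0.32), an interval that holds 0. Bglap, Phex and Mepe of late osteoblasts and osteocytes had 0 reads in both libraries. The level of Sp7, Pth1r and Ibsp with Prx1-EV was nearer to All-EV than the Ocn-EV level was.

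Smooth muscle contractile genes were higher in 16 of 20 members and lower in 0 (median 1.18). The smooth muscle myosin Myh11 stood at 47.5 with All-EV, 399 with Prx1-EV and 396 with Ocn-EV (ratio 3.04, 2.61 to 3.56). Acta2, the smooth muscle actin, stood at 4240.4 with All-EV, 13111 with Prx1-EV and 14148 with Ocn-EV (ratio 1.63, 1.58 to 1.68). The light chain Myl9, whose promoter is shown above, stood at 545 with All-EV, 1497 with Prx1-EV and 1891 with Ocn-EV (ratio 1.45, 1.31 to 1.61). Des, an intermediate filament protein of muscle, stood at 32.8 with All-EV, 135 with Prx1-EV and 70.4 with Ocn-EV (ratio 2.01, 1.46 to 2.67). Tpm1 stood apart at −0.41 (−0.48 to −0.34), while its paralog Tpm2 stood at 1.23 (1.10 to 1.37). Myocd, the coactivator that drives this programme, had too few reads to pass the filter (0 and 1.74). Of 10 skeletal muscle markers, Des and Acta1 passed the filter, and both were at least 2-fold higher. Acta1 stood at 276 with All-EV, 616 with Prx1-EV and 497 with Ocn-EV (ratio 1.15, 0.95 to 1.37). The skeletal muscle factors Myod1, Myog and Pax7 had 0 reads in both libraries. YAP and TAZ targets, which respond to stretch and attachment, had 12 of 20 higher and 1 lower (median 0.69). Ccn2 stood at 3563 with All-EV, 8905 with Prx1-EV and 9362 with Ocn-EV (ratio 1.32, 1.26 to 1.38), and Ajuba, a LIM protein of cell junctions, stood at 69.0 (All-EV), 208 (Prx1-EV) and 210.2 (Ocn-EV), a ratio of 1.57.

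Growth factor systems held more higher genes than lower ones. Among 16 IGF genes, 7 were higher and 0 lower (median 0.53). The binding protein Igfbp5 stood at 73.6 with All-EV, 600.2 with Prx1-EV and 1195 with Ocn-EV (ratio 3.01, 2.66 to 3.42). Igfbp2 stood at 14.7 with All-EV, 123 with Prx1-EV and 141 with Ocn-EV (ratio 2.98, 2.24 to 4.01). The protease Pappa2, which cleaves binding proteins, stood at 17.0 with All-EV, 91.6 with Prx1-EV and 167 with Ocn-EV (ratio 2.36, 1.64 to 3.32). Igf1, the ligand most abundant here, had a ratio of 0.01 (−0.03 to 0.05). In the TGF-beta and BMP system, 11 of 29 were higher and 0 lower (median 0.28). The ligand Tgfb3 stood at 239 with All-EV, 1887 with Prx1-EV and 2135 with Ocn-EV (ratio 2.98, 2.78 to 3.19). Ltbp1, which holds the latent complex in the matrix, stood at 139 with All-EV, 684 with Prx1-EV and 713 with Ocn-EV (ratio 2.29, 2.02 to 2.58). Lrrc32, which docks latent TGF-beta on cell surfaces, stood at 419.9 with All-EV, 1310.3 with Prx1-EV and 1514 with Ocn-EV (ratio 1.64, 1.48 to 1.81). The BMP target Id2 had a ratio of 0.04 (−0.02 to 0.09).

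FGF genes gave 4 of 10 higher and 0 lower (median 0.44, but −0.16 over 4 genes with a filter of 200). Fgfr2 had 0 reads with All-EV, 46 with Prx1-EV and 127 with Ocn-EV, at least 11.8-fold higher with Prx1-EV when All-EV is set at 3 reads. Fgf7, a stromal ligand, stood at 56.6 with All-EV, 177 with Prx1-EV and 294 with Ocn-EV (ratio 1.63, 1.19 to 2.12). In the Wnt system 6 of 15 were higher and 1 lower (median 0.54). Rspo2, which amplifies Wnt signals, stood at 14.7 with All-EV, 85.5 with Prx1-EV and 206 with Ocn-EV (ratio 2.46, 1.70 to 3.50), and the inhibitor Dkk2 stood at 302 (All-EV), 864 (Prx1-EV) and 654 (Ocn-EV), a ratio of 1.51. Among ligands and receptors of the PDGF, VEGF, HGF and EGF families, 2 of 15 were higher and 1 lower, against 7 higher and 1 lower with equal totals. The lower gene was Met, the HGF receptor, which stood at 1573 (All-EV), 192 (Prx1-EV) and 111 (Ocn-EV), a ratio of −3.03. Guidance genes had 10 of 28 higher and 2 lower, or 6 and 4 once a trend on length and GC content was removed. The secreted semaphorin Sema3c stood at 298 with All-EV, 23.6 with Prx1-EV and 15.5 with Ocn-EV (ratio −3.60, −4.29 to −3.09), while the ligands Slit3 and Ntn1 had ratios of 1.96 and 1.82.

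Listed stromal progenitor and niche genes had reads in both libraries but took a far smaller share of them than listed macrophage markers did. Such shares depend on which genes are listed, and fibrillar collagen chains took 0.0983% of reads with All-EV and 0.437% with Prx1-EV. The 24 stromal progenitor and niche genes took 0.0228% (0.0220 to 0.0235) of reads with All-EV and 0.0408% (0.0398 to 0.0417) with Prx1-EV. Exact 95% Clopper-Pearson intervals are in brackets, and 0 of the 24 genes lacked reads in either library. Of the 14 past the filter, 7 were higher and 2 lower (median 0.57). The mural receptor Pdgfrb stood at 129 with All-EV, 379 with Prx1-EV and 539 with Ocn-EV (ratio 1.55, 1.25 to 1.86). Prrx1, the gene of the Prx1 driver, stood at 303 with All-EV, 522 with Prx1-EV and 715 with Ocn-EV (ratio 0.78, 0.57 to 1.00). Lepr, the receptor that marks marrow reticular cells, stood at 12.4 and 11.3, and Grem1, a BMP antagonist, stood at 319 (All-EV), 157 (Prx1-EV) and 151 (Ocn-EV), a ratio of −1.02. The 20 pan-macrophage genes took 1.56% (1.56 to 1.57) of reads with All-EV and 1.06% (1.05 to 1.06) with Prx1-EV. Without Lyz2 the other 19 took 0.766% (0.762 to 0.770) with All-EV and 0.788% (0.784 to 0.792) with Prx1-EV. That small rise is one of shares, which are at equal totals. The summed deposited level of the same 19 was lower with Prx1-EV.

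**Figure D3:**
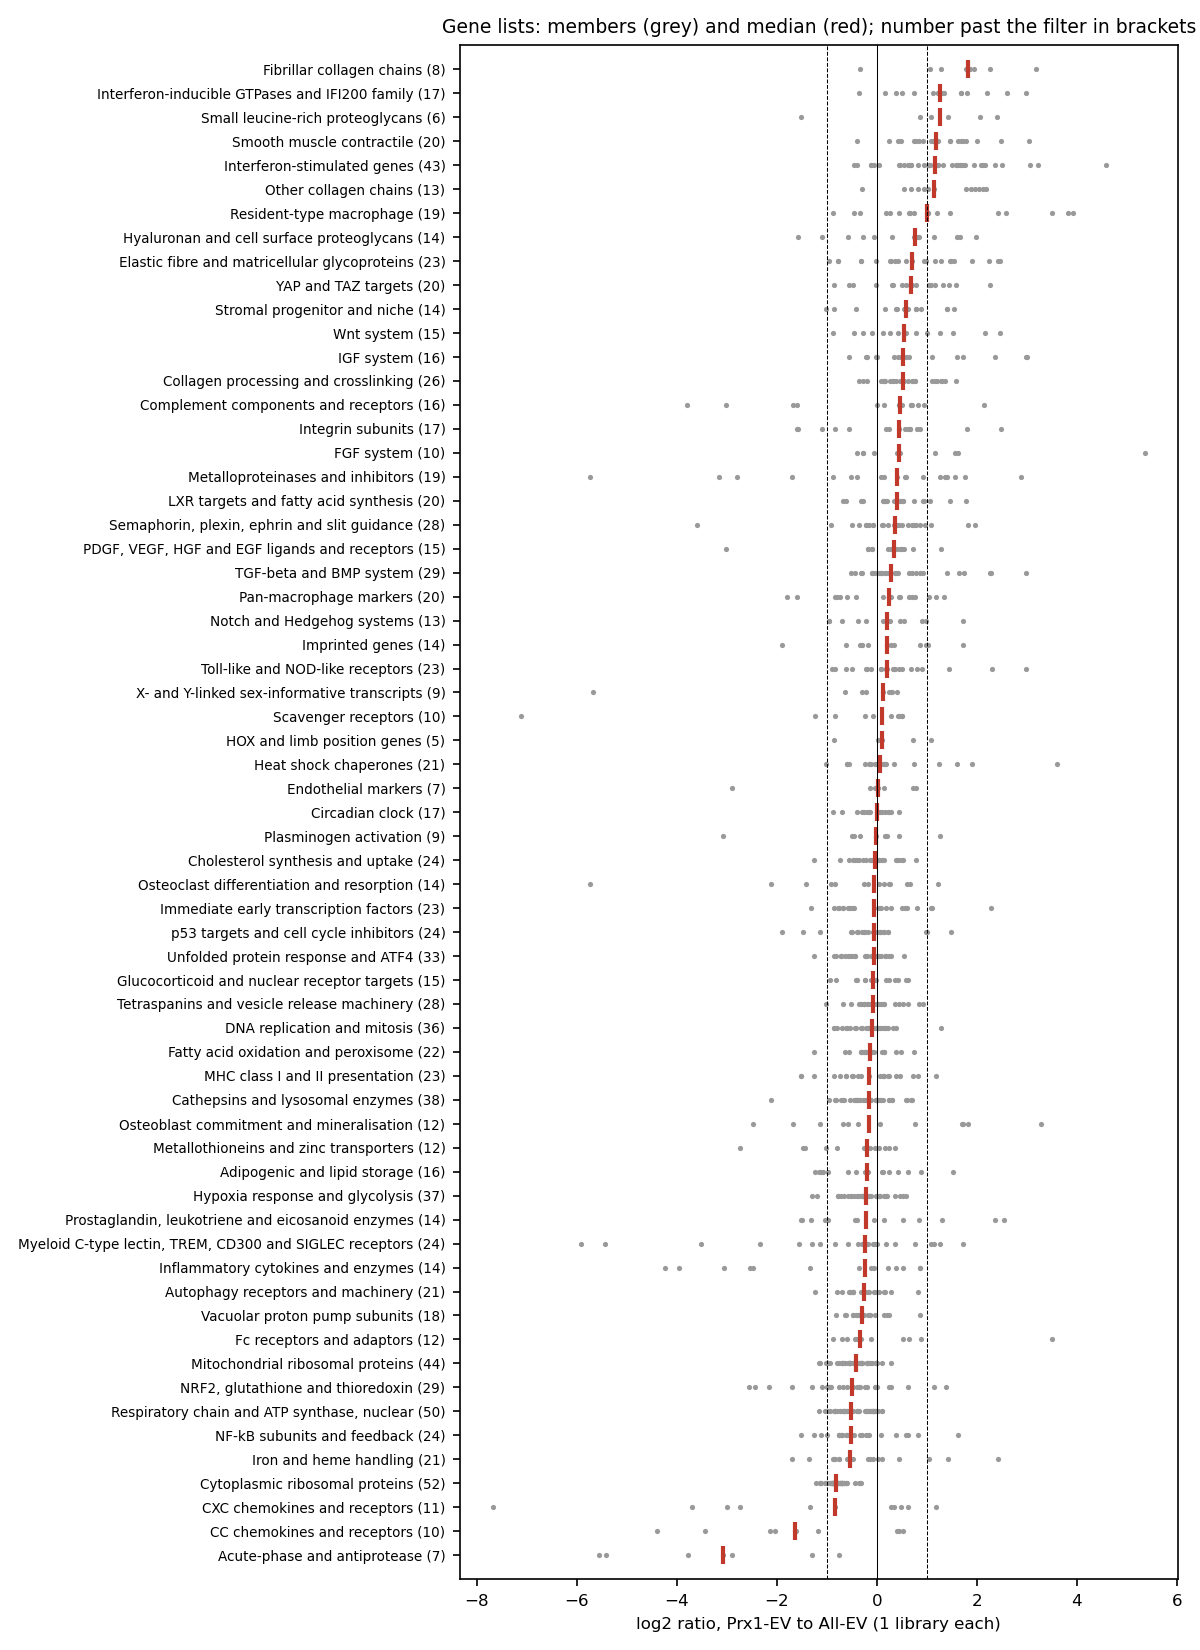
Log2 ratio of Prx1-EV to All-EV for the members of each list with at least 5 genes past the filter (grey points) and their median (red bar), ordered by median. Fibrillar collagens (1.82) stand at the top and acute-phase and antiprotease genes (−3.08) at the bottom. Serpinb2, the gene at that lowest median, passed the filter through All-EV alone, which fixed its direction. Negative medians within 0.22 of 0 turn positive with equal totals.

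Macrophage genes lay on both sides of 0. Of 20 pan-macrophage genes, 6 were higher and 6 lower (median 0.25), with 8 higher and 3 lower with equal totals. Lyz2 stood at 140306 with All-EV, 40548 with Prx1-EV and 51741 with Ocn-EV (ratio −1.79, −1.81 to −1.78). The integrin Itgam (CD11b) stood at 22791 with All-EV, 7532 with Prx1-EV and 8534 with Ocn-EV (ratio −1.60, −1.63 to −1.56). Both were lower, as was Adgre1 (F4/80) at −0.80 (−0.84 to −0.77). Mertk, the receptor for dying cells, stood at 866 with All-EV, 2199 with Prx1-EV and 2194 with Ocn-EV (ratio 1.34, 1.23 to 1.46). Csf1r, the growth factor receptor that macrophages depend on, had a ratio of 0.25 (0.20 to 0.29) and the lysosomal Cd68 one of 0.28 (0.25 to 0.30). Lyz2 and Itgam thus differed by far more than Csf1r and Cd68 did.

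Genes of resident-type macrophages were higher in 13 of 19 members and lower in 1 (median 1.00), and together took 0.586% (0.582 to 0.589) of reads with All-EV and 1.38% (1.37 to 1.38) with Prx1-EV. Apoe was the largest part of that share. Fcrls, an Fc receptor-like gene known from microglia, stood at 569 with All-EV, 6453 with Prx1-EV and 6662 with Ocn-EV (ratio 3.50, 3.37 to 3.64). Gpr34, a lysophospholipid receptor, stood at 22.6 with All-EV, 359 with Prx1-EV and 375 with Ocn-EV (ratio 3.93, 3.34 to 4.71). Cbr2, a carbonyl reductase, stood at 37.3 with All-EV, 543 with Prx1-EV and 625 with Ocn-EV (ratio 3.83, 3.36 to 4.41). In each the Prx1-EV and Ocn-EV levels lay close together and far above that of All-EV. The nucleotide receptor P2ry13 stood at 12.4 with All-EV, 79.4 with Prx1-EV and 77.7 with Ocn-EV (ratio 2.58, 1.77 to 3.73). The hemoglobin scavenger Cd163 stood at 11.3 with All-EV, 65.4 with Prx1-EV and 165 with Ocn-EV (ratio 2.43, 1.57 to 3.65). Stab1, another scavenger, had a ratio of 1.03 (0.98 to 1.07) and the transcription factor Maf one of 1.20 (1.11 to 1.30). The lower member was Slc40a1, the iron exporter ferroportin, at −0.88 (−0.94 to −0.82), and Timd4, Siglech, Cd209f and Cd209g had 0 reads in both libraries.

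**Figure D4:**
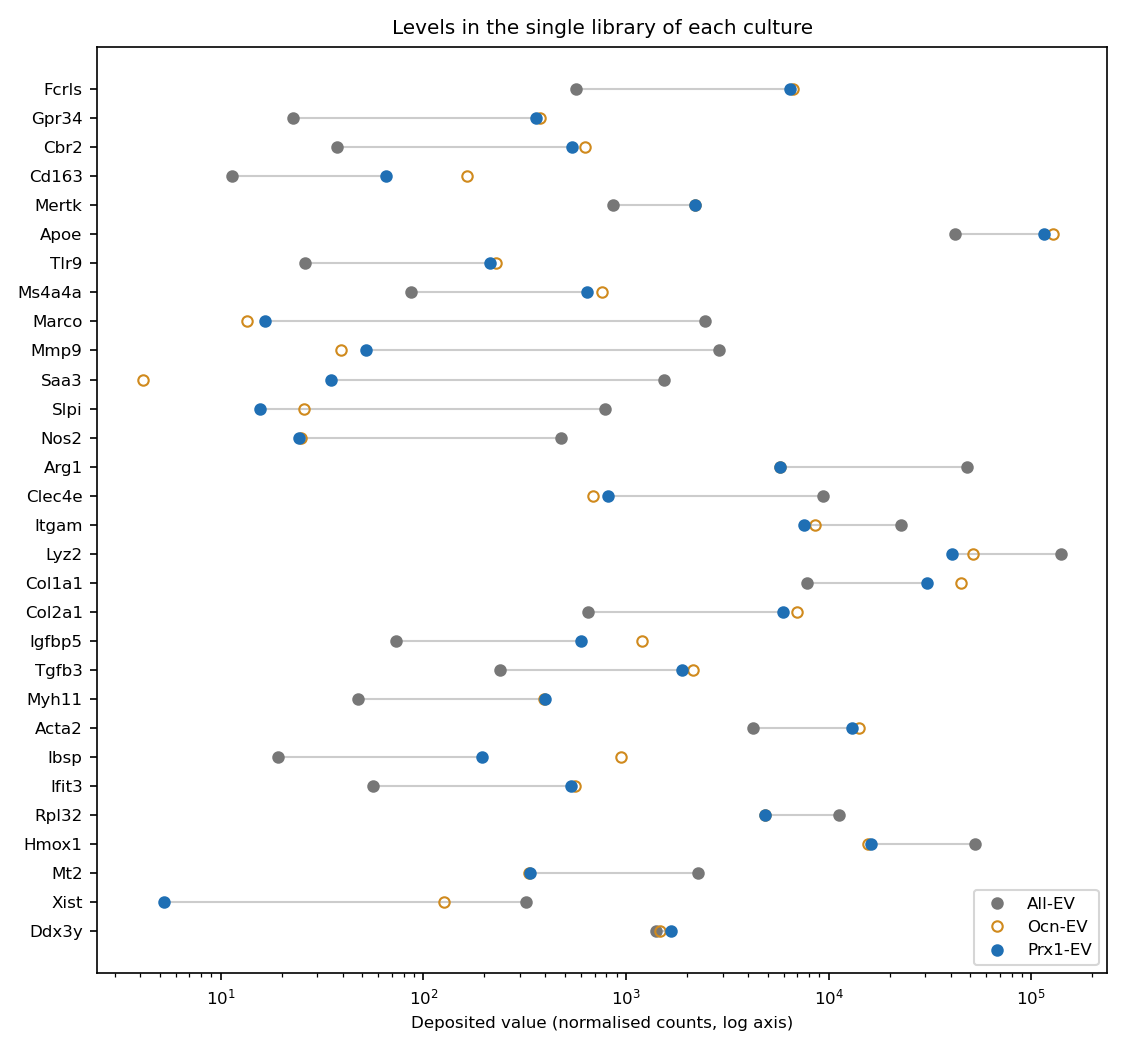
Deposited value (horizontal, log axis) of 30 named genes in the single library of each culture: All-EV (grey), Prx1-EV (blue) and Ocn-EV (open orange). Prx1-EV and Ocn-EV lie close together for most genes. Saa3, Ibsp and Xist are among those where they are apart.

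Receptors of innate immunity lay on both sides of 0. Toll-like and NOD-like receptor genes had 6 of 23 higher and 3 lower (median 0.19). Tlr9, the sensor of bacterial DNA in endosomes, stood at 26.0 with All-EV, 213 with Prx1-EV and 229 with Ocn-EV (ratio 2.98, 2.41 to 3.72). Tlr1, the partner of TLR2 for lipoproteins, stood at 44.1 with All-EV, 221 with Prx1-EV and 208 with Ocn-EV (ratio 2.30, 1.83 to 2.85). Tlr8 had a ratio of 1.44 (1.27 to 1.61), while Cd14, the lipopolysaccharide coreceptor, had −0.84 (−0.94 to −0.75). Myeloid lectin, TREM, CD300 and SIGLEC receptors had 5 of 24 higher and 8 lower (median −0.24). Clec4e (Mincle), a receptor for mycobacterial glycolipid, stood at 9379 with All-EV, 815 with Prx1-EV and 684 with Ocn-EV (ratio −3.52, −3.62 to −3.43). Clec4n (Dectin-2) stood at 5779.5 with All-EV, 1143 with Prx1-EV and 1376 with Ocn-EV (ratio −2.34, −2.43 to −2.25). Treml4 and Tarm1, at ratios of −5.92 (−8.67 to −4.81) and −5.44 (−7.69 to −4.41), had 3 and 4 reads with Prx1-EV. Trem2, abundant in both, had 0.18 (0.14 to 0.21). Among scavenger receptors, 0 of 10 were higher and 3 lower, against 4 higher and 3 lower with equal totals. The lowest was Marco, which stood at 2455 (All-EV), 16.6 (Prx1-EV) and 13.5 (Ocn-EV), a ratio of −7.13, and Cd36 followed at −1.24 (−1.26 to −1.22).

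Among lists with at least 5 genes past the filter, acute-phase and chemokine genes had the lowest medians. Of 10 CC chemokine and receptor genes, 7 were lower and 0 higher (median −1.63), with 3 higher at equal totals. Ccl6, a macrophage and neutrophil chemokine, stood at 6877 with All-EV, 634 with Prx1-EV and 1064 with Ocn-EV (ratio −3.44, −3.55 to −3.33). Ccl2, the monocyte attractant, stood at 333 with All-EV, 80.3 with Prx1-EV and 85.9 with Ocn-EV (ratio −2.04, −2.41 to −1.71). The receptor Ccr1 stood at 2045 with All-EV, 655 with Prx1-EV and 713 with Ocn-EV (ratio −1.64, −1.77 to −1.52). The related Ccl3 and Ccl4 went the other way, at 0.40 (0.22 to 0.58) and 0.53 (0.13 to 0.94), short of 1.5-fold. Of 11 CXC genes, 6 were lower and 2 higher (median −0.83). Cxcl2, which attracts neutrophils, stood at 349.7 with All-EV, 26.2 with Prx1-EV and 18.6 with Ocn-EV (ratio −3.69, −4.33 to −3.20). Cxcl3 had 181 reads with All-EV and 0 with Prx1-EV and Ocn-EV, at least 78.3-fold lower with Prx1-EV at the floor of 3 reads. Of 28 acute-phase and antiprotease genes, 7 passed the filter, while 9 had 0 reads with All-EV and 12 with Prx1-EV. All 7 were lower, 6 with equal totals (median −3.08). Slpi, Saa3 and Serpinb2, like Cxcl2 and Cxcl3, passed through the All-EV level alone, so the filter fixed their direction. Serpinb2 is the gene at the median of the acute-phase list, so that median and its rank rest in part on the filter. The same limit holds, among others, for Marco and Sema3c above and for Acod1 and Nos2 below. Slpi, an inhibitor of leukocyte proteases, stood at 788 with All-EV, 15.7 with Prx1-EV and 25.9 with Ocn-EV (ratio −5.56, −6.41 to −4.98). Saa3 stood at 1538 with All-EV, 34.9 with Prx1-EV and 4.14 with Ocn-EV (ratio −5.42, −5.95 to −5.01), and was higher with Prx1-EV than with Ocn-EV by a log2 of 2.80.

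Inflammatory enzymes and complement followed no single direction. Of 14 inflammatory cytokine and enzyme genes, 6 were lower and 2 higher (median −0.25), or 4 higher with equal totals. Acod1, which makes itaconate, stood at 274 with All-EV, 16.6 with Prx1-EV and 28.0 with Ocn-EV (ratio −3.97, −4.80 to −3.37). Nos2, the inducible nitric oxide synthase, stood at 478 with All-EV, 24.4 with Prx1-EV and 24.9 with Ocn-EV (ratio −4.23, −4.90 to −3.74). Arg1, which competes with it for arginine, stood at 48069 with All-EV, 5778 with Prx1-EV and 5779.8 with Ocn-EV (ratio −3.06, −3.09 to −3.02). Enzymes known from opposed macrophage states were lower together. Tnf stood at a ratio of 0.22 (−0.16 to 0.62). Complement genes had 6 of 16 higher and 4 lower (median 0.45), or 10 higher with equal totals. C3 stood at 2069 with All-EV, 147 with Prx1-EV and 131 with Ocn-EV (ratio −3.80, −4.05 to −3.58), and Cfb (factor B) stood at 324 (All-EV), 39.3 (Prx1-EV) and 26.9 (Ocn-EV), a ratio of −3.01. The receptor C5ar2 stood at 126 with All-EV, 557 with Prx1-EV and 548 with Ocn-EV (ratio 2.14, 1.85 to 2.45), and C1qc had a ratio of 0.71 (0.65 to 0.77). In the eicosanoid list, 4 of 14 were higher and 5 lower. Ptgis (prostacyclin synthase) and Hpgd, which breaks prostaglandins down, had ratios of 2.54 and 2.36, while Ptges (prostaglandin E synthase) and the leukotriene protein Alox5ap had −1.32 and −1.51.

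NF-kB subunits and feedback genes had 12 of 24 lower and 3 higher (median −0.53), and 4 lower and 5 higher with equal totals (median −0.30). Relb, a subunit of the alternative pathway, stood at 939 with All-EV, 328 with Prx1-EV and 328 with Ocn-EV (ratio −1.51, −1.70 to −1.34). The feedback inhibitor Nfkbia had a ratio of −0.77 (−0.93 to −0.60), while Rela, the main subunit, had 0.07 (−0.03 to 0.18). Nfkbid, a nuclear inhibitor, stood at 32.8 with All-EV, 104 with Prx1-EV and 136 with Ocn-EV (ratio 1.63, 1.07 to 2.30). Socs3, which restrains cytokine signalling, stood at 242 with All-EV, 100.3 with Prx1-EV and 96.3 with Ocn-EV (ratio −1.26, −1.61 to −0.94).

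Interferon-stimulated genes were higher in 34 of 43 members and lower in 0 (median 1.16), and together took 0.112% (0.110 to 0.114) of reads with All-EV and 0.276% (0.274 to 0.279) with Prx1-EV. Ifit3, which binds viral RNA, stood at 56.6 with All-EV, 536 with Prx1-EV and 558 with Ocn-EV (ratio 3.22, 2.83 to 3.69). Oas3, a sensor that makes an activator of RNA decay, stood at 748 with All-EV, 3150.1 with Prx1-EV and 3127 with Ocn-EV (ratio 2.07, 1.95 to 2.20). Rtp4, a chaperone that restrains interferon responses, stood at 152 with All-EV, 858 with Prx1-EV and 998 with Ocn-EV (ratio 2.49, 2.24 to 2.77). The transcription factor gene Stat2 was higher too, at 1.22 (1.08 to 1.37). Irf7 was not, at −0.06 (−0.22 to 0.10), nor were Isg20 and Ifi27l2a, at −0.11 and −0.46. Of 17 interferon-inducible GTPase and IFI200 genes, 13 were higher and 0 lower (median 1.26). Gbp9 stood at 31.7 with All-EV, 256 with Prx1-EV and 270.2 with Ocn-EV (ratio 2.97, 2.45 to 3.63). Ifi203, of the DNA-binding IFI200 family, stood at 95.1 with All-EV, 579 with Prx1-EV and 649 with Ocn-EV (ratio 2.59, 2.28 to 2.95). Gbp3 and Gbp6 had ratios of 0.16 and −0.36. These families hold near-identical copies, so reads could be split between members.

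Some of the genes far apart were neighbours on the chromosome. In 13 places, with 49 genes in all (5.04% of the 972), at least 3 consecutive genes past the filter were all at least 2-fold apart in the same direction. On chromosome 1, 6 IFI200 genes from Ifi209 to Ifi203 were higher, with ratios from 1.13 to 2.59. On chromosome 19, Ifit2, Ifit3 and Ifit1 were followed by Pank1, a coenzyme A synthesis gene, at 1.47 (0.87 to 2.17). Also on that chromosome, 5 adjacent genes of the Ms4a family of membrane proteins were higher. Ms4a4a stood at 87.1 with All-EV, 642 with Prx1-EV and 761 with Ocn-EV (ratio 2.87, 2.54 to 3.24), and Ms4a6b stood at 31.7 (All-EV), 254 (Prx1-EV) and 409 (Ocn-EV), a ratio of 2.96. A sixth member, Ms4a6d, the most abundant one with All-EV, had a ratio of −0.19 (−0.28 to −0.11).

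The lower runs held chemokine, serpin and receptor genes. On chromosome 5, Ppbp, Pf4, Cxcl3 and Cxcl2 lay in 1 run. On the same chromosome, Fbxl5, Bst1 and Cd38 formed another. Bst1 stood at 3190.2 with All-EV, 161 with Prx1-EV and 153 with Ocn-EV (ratio −4.30, −4.54 to −4.10), and Cd38 stood at 506 (All-EV), 46.2 (Prx1-EV) and 66.3 (Ocn-EV), a ratio of −3.42. Both are enzymes that break down NAD. Fbxl5, an iron-sensing ubiquitin ligase subunit, had a ratio of −1.07 (−1.17 to −0.96). On chromosome 3, Sirpb1a, Sirpb1b and Sirpb1c, activating receptors of the SIRP family, had ratios of −1.49, −2.12 and −2.18. Sirpa, the inhibitory receptor for CD47, is on another chromosome and stood at 13151 (All-EV), 19578 (Prx1-EV) and 18575 (Ocn-EV), a ratio of 0.57. On chromosome 13, Serpinb6b, Serpinb9, Serpinb9b and Serpinb6a were lower, with ratios from −3.78 to −1.07. Genes of a run often belong to 1 family and can share reads.

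**Figure D5:**
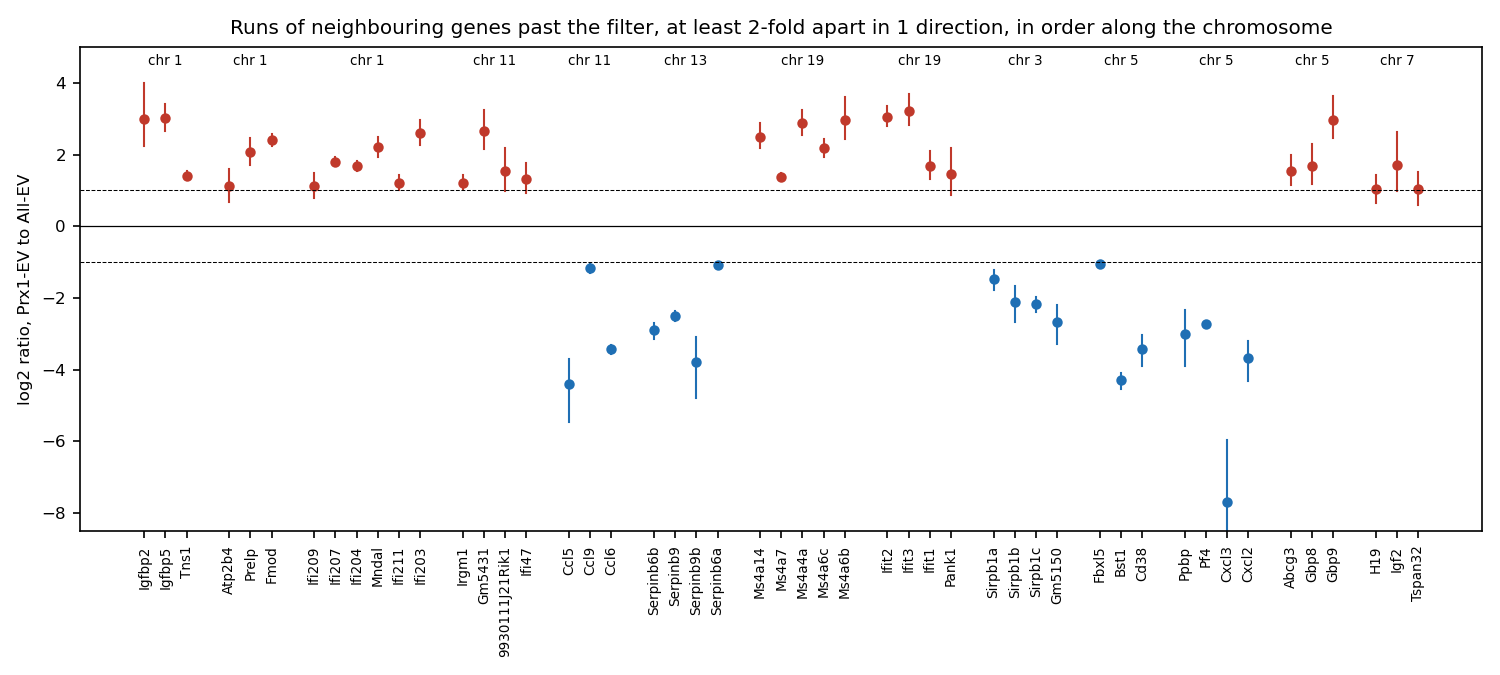
Log2 ratio of Prx1-EV to All-EV (points) with 95% intervals of counting error (lines) for the genes of the 13 runs, in order along each chromosome. Red runs are higher and blue runs lower. The line of Cxcl3, with 0 reads in Prx1-EV, has no lower end.

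Ribosomal protein genes were lower, as were part of the respiratory genes, by counts that depended on scaling. Of 52 cytoplasmic ribosomal protein genes, 48 were lower and 0 higher (median −0.81), and 26 were lower with equal totals (median −0.59) and 22 with the trend on length and GC content removed. Together they took 3.18% (3.17 to 3.19) of reads with All-EV and 2.14% (2.13 to 2.15) with Prx1-EV. Rpl32 stood at 11299 with All-EV, 4850.4 with Prx1-EV and 4871 with Ocn-EV (ratio −1.22, −1.27 to −1.17). Rplp0, of the ribosomal stalk, stood at 25637 with All-EV, 14952 with Prx1-EV and 14912 with Ocn-EV (ratio −0.78, −0.81 to −0.75). Snhg RNAs, which host small nucleolar RNAs in their introns, stood with them, 7 of 10 lower and 0 higher. Snhg1 stood at 551 with All-EV, 164 with Prx1-EV and 145 with Ocn-EV (ratio −1.74, −2.00 to −1.50). Nuclear respiratory chain and ATP synthase genes had 19 of 50 lower and 0 higher (median −0.52). With equal totals 8 were lower (median −0.29), and with the length and GC trend removed 6 (median −0.22). Genes of the mitochondrial genome had 2 of 12 lower (median −0.19, but 0.03 with equal totals), of which COX1 stood at 132260.0 (All-EV), 71106 (Prx1-EV) and 70984 (Ocn-EV), a ratio of −0.90.

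Iron, metal and oxidant handling was lower in part. Iron and heme genes had 8 of 21 lower and 3 higher (median −0.53), or 5 lower with equal totals, and took 5.90% (5.89 to 5.92) of reads with All-EV and 3.79% (3.78 to 3.79) with Prx1-EV, mostly as ferritin. Hmox1, which frees iron from heme, stood at 52623 with All-EV, 16134 with Prx1-EV and 15684 with Ocn-EV (ratio −1.71, −1.73 to −1.68). Tfrc, the transferrin receptor for iron uptake, stood at 335 with All-EV, 902 with Prx1-EV and 807 with Ocn-EV (ratio 1.43, 1.24 to 1.62). Ncoa4, which delivers ferritin for breakdown, had a ratio of −0.85 (−0.93 to −0.76). Storage and export genes were lower and the uptake receptor was higher. Metallothioneins bind zinc and copper, and Mt2 stood at 2261 (All-EV), 338 (Prx1-EV) and 332 (Ocn-EV), a ratio of −2.74. NRF2, glutathione and thioredoxin genes had 14 of 29 lower and 3 higher (median −0.49). Slc7a11, the cystine importer, stood at 4187 with All-EV, 770.3 with Prx1-EV and 828 with Ocn-EV (ratio −2.44, −2.55 to −2.34). The glutathione transferase Gsta3 stood at 1307 with All-EV, 222 with Prx1-EV and 146 with Ocn-EV (ratio −2.55, −2.76 to −2.36), while Osgin1 stood at 79.2 (All-EV), 207 (Prx1-EV) and 159 (Ocn-EV), a ratio of 1.37.

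Several metabolic and organelle lists stayed near 0 and depended on scaling. Hypoxia and glycolysis genes had 6 of 37 lower and 1 higher (median −0.22), but 2 lower and 4 higher (median 0.01) with equal totals. Slc2a1, the glucose transporter, stood at 29927 with All-EV, 12961 with Prx1-EV and 11669 with Ocn-EV (ratio −1.21, −1.24 to −1.18). Cathepsins and lysosomal enzymes had 7 of 38 lower and 3 higher (median −0.16), but 4 and 4 (median 0.06) with equal totals. Ctsk, the collagen-cutting cathepsin of osteoclasts, stood at 4185 with All-EV, 967 with Prx1-EV and 843 with Ocn-EV (ratio −2.11, −2.21 to −2.02). LXR and fatty acid synthesis genes had 6 of 20 higher and 2 lower (median 0.39), or 10 and 0 with equal totals. Scd1, which desaturates fatty acids, stood at 46.4 with All-EV, 163 with Prx1-EV and 160.5 with Ocn-EV (ratio 1.79, 1.32 to 2.34). Replication and mitosis genes had 1 of 36 higher and 6 lower (median −0.10), but 2 and 2 (median 0.12) with equal totals. Cdkn1c, an imprinted cell cycle inhibitor, stood at 2397 with All-EV, 641 with Prx1-EV and 666 with Ocn-EV (ratio −1.90, −2.03 to −1.78). Among immediate early genes, Egr1 stood at 96.2 (All-EV), 471 (Prx1-EV) and 651 (Ocn-EV), a ratio of 2.28, and Myc stood at 1737 (All-EV), 699 (Prx1-EV) and 698 (Ocn-EV), a ratio of −1.31.

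Markers of other cell types differed in both directions, and their part in these results was not tested. Of 15 neutrophil markers, 2 passed the filter, and the defining Ly6g, Elane, Mpo and Ltf had 0 reads in both libraries. The list took 0.0536% (0.0524 to 0.0547) of reads with All-EV and 0.0127% (0.0122 to 0.0133) with Prx1-EV, of which Mmp8 was 95.2% and 52.6%. Without Mmp8 the other 14 together took 0.00258% (0.00233 to 0.00284) with All-EV and 0.00602% (0.00566 to 0.00640) with Prx1-EV. Csf3r, the granulocyte growth factor receptor, stood at 389 (All-EV), 899 (Prx1-EV) and 839.7 (Ocn-EV), a ratio of 1.21. It alone took 0.00221% of reads with All-EV and 0.00597% with Prx1-EV. That rise was larger than the rise of the 14 together, so the markers besides Mmp8 and Csf3r fell as a sum. Megakaryocyte and platelet markers took 0.0609% (0.0597 to 0.0622) of reads with All-EV and 0.0128% (0.0123 to 0.0134) with Prx1-EV, of which Pf4 was 97.5% and 81.5%. Without Pf4 the other 10 rose as a sum, from 0.00150% (0.00132 to 0.00171) with All-EV to 0.00238% (0.00216 to 0.00262) with Prx1-EV. They did not move together. Of the 3 markers past the filter, Pf4 and Ppbp were lower (ratios of −2.73 and −3.00) and 1 was higher, at 1.71. Gp9, Gp6 and Tubb1 had 0 reads in both. Of 14 endothelial markers, 7 passed the filter, and all 14 took 0.0152% (0.0146 to 0.0158) of reads with All-EV and 0.0163% (0.0157 to 0.0169) with Prx1-EV. Their summed deposited level went the other way, at 2675 with All-EV and 2451 with Prx1-EV. Esam, a junction protein, stood at 584 with All-EV, 77.6 with Prx1-EV and 73.5 with Ocn-EV (ratio −2.89, −3.25 to −2.58), yet Pecam1 and Cdh5 had ratios of −0.15 and 0.78. Of 10 B cell markers, 2 passed, and Ighm stood at 500.2 (All-EV), 119.5 (Prx1-EV) and 143 (Ocn-EV), a ratio of −2.06. Of 13 T and NK cell markers, 1 passed, Cd4, which stood at 14.7 (All-EV), 95.1 (Prx1-EV) and 73.5 (Ocn-EV), a ratio of 2.61, with Cd3d, Cd3e, Cd3g and Cd8a at 0 reads in both libraries. Of 11 erythroid and 9 mast cell markers, 0 passed.

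Transcripts of lung epithelium were present in the Prx1-EV and Ocn-EV libraries and nearly absent from All-EV. Scgb1a1, the secretoglobin of airway club cells, stood at 5.66 with All-EV, 119 with Prx1-EV and 176 with Ocn-EV (ratio 4.17, 3.13 to 6.04). Sftpc, surfactant protein C, had 1 read with All-EV, 60 with Prx1-EV and 85 with Ocn-EV. Sftpb had 0, 22 and 21 reads, and the club cell enzyme Cyp2f2 had 0, 24 and 45. Sftpb and Cyp2f2 were at least 5.65-fold and 6.17-fold higher with Prx1-EV with All-EV set at 3 reads. Epithelial keratins Krt5 and Krt14 had 0 reads in both libraries, and Epcam stood at 1.13 and 0.872.

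Sex-linked transcripts differed in Xist, the RNA that coats the inactive X chromosome. Xist stood at 320.3 with All-EV, 5.23 with Prx1-EV and 126 with Ocn-EV, a ratio of −5.69. Y-linked genes were expressed in every library. Ddx3y stood at 1413 with All-EV, 1671 with Prx1-EV and 1473 with Ocn-EV (ratio 0.24, 0.14 to 0.35), and Kdm5d, Eif2s3y and Uty lay within 1.5-fold between the libraries. The sources used here do not say whether counting used strand. Xist overlaps the antisense Tsix, which had 0 reads in both libraries.

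Genes under the filter with 0 reads in 1 library gave a few more named differences. Map3k7cl and Prss35 each had 29 reads with Prx1-EV and 0 with All-EV, at least 7.45-fold higher. Hoxa11, a limb position gene, had 22 reads with Prx1-EV and 13 with Ocn-EV, also against 0, at least 5.65-fold higher. Fpr2, a receptor for formyl peptides and for serum amyloid A, had 28 reads with All-EV and 0 with Prx1-EV, at least 12.1-fold lower. Rnase6, an antimicrobial ribonuclease, had 13 and 0, at least 5.62-fold lower. Just under the filter of 50 lay Cd74 at a mean of 49.9, and just inside it Tox2 at 50.0.

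Beside Ocn-EV, most genes that set Prx1-EV apart from control had like values. Both comparisons use the same All-EV library, so they are not independent. Over the 567 higher genes the median ratio to All-EV was 1.36 with Prx1-EV and 1.52 with Ocn-EV, and over the 405 lower genes it was −1.29 with each. Against Ocn-EV itself, Prx1-EV was at least 2-fold above in 4 of the higher genes and below in 13. Of the lower genes, 5 were above and 10 below. In the whole comparison 57 genes (0.515%) were 2-fold apart between Prx1-EV and Ocn-EV. Eif3j2, a translation factor subunit gene, stood at 105 with All-EV, 48.9 with Prx1-EV and 293 with Ocn-EV (ratio −1.09, −1.61 to −0.61). Trem1, which amplifies inflammatory signals, stood at 53.2 with All-EV, 23.6 with Prx1-EV and 78.7 with Ocn-EV (ratio −1.14, −1.91 to −0.46). Cx3cr1, the fractalkine receptor, stood at 23.8 with All-EV, 55.0 with Prx1-EV and 187 with Ocn-EV (ratio 1.18, 0.48 to 2.00). In these the Prx1-EV level was under that of Ocn-EV. Shroom4, an actin-binding gene, stood at 38.5 with All-EV, 100.3 with Prx1-EV and 42.5 with Ocn-EV (ratio 1.36, 0.82 to 1.98), and the fatty acid carrier Slc27a6 stood at 252 (All-EV), 29.7 (Prx1-EV) and 13.5 (Ocn-EV), a ratio of −3.05, both higher with Prx1-EV than with Ocn-EV.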

How the data were processed

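The deposited table holds 1 signal value for each gene and library, a read count that the authors divided by a size factor for the library. The submitters' processing notes list the build mm10 and, in no stated order, DESeq2 2.11.40.8, featureCounts 2.0.3, HISAT2 2.2.1, Trimmomatic 0.38.1 and FastQC 0.74. DESeq2 releases are not numbered this way, but its Galaxy wrappers are. Libraries were made from 100 ng of RNA and read as pairs of 150 bases, per the labels' protocols. A single read was worth 0.872 in Prx1-EV, 1.04 in Ocn-EV and 1.13 in All-EV. Division by it gave whole reads for 100% of deposited values (tolerance 1e-06).

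Symbols and positions came from RefSeq and matched 25275 of 27179 identifiers. Of the genes compared, 89 had no symbol. Ratios used a pseudocount of 1, which pulls low genes toward 0. Intervals are exact conditional binomial 95% intervals and, for shares, Clopper-Pearson ones. Reads carry no molecular identifiers, so both cover counting error only. A gene at 0 reads was given a floor of 3 reads. An exact test on the reads compares libraries, not conditions. It called 7092 genes after Benjamini-Hochberg adjustment, and these calls were not used. Calculations ran in Python 3.11.15 with pandas 2.3.3, numpy 2.4.6 and scipy 1.17.1 and were tested on simulated data.

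The members and the 74 gene lists were chosen with earlier results of these data known, so they are no independent support. A gene with a plain symbol was named if it had one of the 12 highest or 12 lowest ratios, or was among the 12 with the largest gain or loss of read share, the 5 members of a list farthest from 0 or its 2 most abundant, the 10 farthest above or below Ocn-EV among 2-fold genes, or the 5 with most reads against 0 in the other library. Markers of cell types and sex-linked transcripts were named whatever their value. The Ms4a, Snhg, Sirp, Serpinb and Schlafen families, Bst1 with Cd38, the lung and mitochondrial transcripts, the genes of the chromosomal runs, the genes with promoters shown, and list members given only to show the other side of a list were chosen after their values were seen. A few genes the rule takes in are not reported here. Alternatives were equal totals, TMM factors, pseudocounts of 0.5 and 10, filters of 10 and 200, a filter on the 2 libraries compared and, added after seeing the data, removal of a cubic trend on transcript length and GC content (GENCODE vM21, available for 97.6% of genes).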

Additional observations from a re-analysis of the deposited data

How the results depend on the processing

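No result of this comparison has a replicate, so the alternatives below show only how the counts depend on processing. The 567 higher genes became 909 with equal totals, 978 with a filter of 10 and 304 with a filter of 200. The 405 lower genes became 232 with equal totals and 717 with a filter of 10. The changes with the filter came with 13611 and 8180 genes compared in place of 11067. TMM factors (580 higher and 394 lower), pseudocounts of 0.5 (572 and 408) and 10 (499 and 373), a filter on the 2 libraries (534 and 424) and correction for length and GC content (497 and 343) kept both counts within 1.5 times, as did the filter of 200 for lower genes (275). Of 238 named genes at least 2-fold apart, 0 turned direction under any of these, and 27 fell under 2-fold with equal totals, 3 with TMM factors and 17 with a pseudocount of 10. The length and GC correction brought 27 of 235 under 2-fold. List counts that it moved by over 1.5 times, beside those given above, were fibrillar and other collagens (1 lower each in place of 0), FGF genes (1 lower in place of 0), TGF-beta and BMP genes (2 lower in place of 0), scavenger receptors (1 higher in place of 0), CC chemokines (2 higher in place of 0), CXC genes (1 higher in place of 2), LXR genes (1 lower in place of 2), hypoxia genes (0 higher in place of 1), replication genes (2 higher in place of 1), endothelial markers (1 higher in place of 2), and heat shock genes and tetraspanins (1 lower each in place of 3 and 2). Length and GC content accounted for 8.22% of the variance of the ratios. The median 95% interval reached 0.19 to either side of a ratio, and 0.42 among genes with a mean of 50 to 200, where depth limits most. No paired analysis was possible because each group has 1 library.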

Other observations

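Further gene groups gave the following counts. Of 6 Schlafen genes past the filter, 4 were at least 1.5-fold higher with Prx1-EV and 0 lower (median 0.83), led by Slfn9 at 1.66 and Slfn5 at 1.04. Heat shock genes had 5 of 21 higher and 3 lower, or 1 lower with equal totals (median 0.06, but −0.03 with a filter of 200). Their far members were the small heat shock gene Hspb7 at 3.60 and the inducible Hspa1b and Hspa1a at 1.90 and 1.61, while the constitutive Hspa8 stood at −0.03. Of 132 long noncoding RNAs past the filter, 13 were at least 2-fold higher and 8 lower. That is 15.9% in either direction, beside 8.78% of all genes compared. The 2 shares were not matched for level, and among all genes with a mean of 50 to 200, 9.11% were higher and 4.50% lower. The p53 target Sesn1 stood at 311 with All-EV and 868 with Prx1-EV, whereas Phlda3, another one, stood at 943 and 338. Tetraspanin and vesicle release genes had 3 of 28 higher and 2 lower (median −0.08) as deposited, where 25.3% of all genes were past 1.5-fold. With equal totals 5 were higher and 1 lower (median 0.14). The vesicle marker Cd63 stood at 18384 with All-EV and 18612 with Prx1-EV. Of the 972 genes at least 2-fold apart, 679 were in none of the lists.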
